A study of Mus musculus with 32 samples.

Results

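Thymus was compared with peripheral lymph node in wild type mice, using 8 of the 32 arrays in the series: 4 of thymus and 4 of peripheral lymph node, 1 of each from each of 4 mice. The arrays were chosen by their labelled tissue and genotype alone. All 4 mice were female C57BL/6 animals of 12 weeks and carried no transgene. They were littermates of CD2-CD30L mice, with 4 mice per genotype and 4 tissues per mouse. CD2-CD30L mice overexpress CD30 ligand, a TNF family protein, in T cells at all times. The 8 arrays of thymus and peripheral lymph node from 4 such transgenic mice, and the wild type mesenteric lymph nodes and spleens, are used further on. RNA was taken from whole tissue, and 5 µg of it per sample went into a biotin labelling for Affymetrix arrays, which read each transcript with 1 or more probe sets. In whole tissue, fewer cells of a type and less RNA per cell cannot be told apart.

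The thymus is the organ in which T cells are made. Progenitors that arrive from the blood receive Notch signals from thymic epithelium, divide, cut and rejoin their T cell receptor genes with the RAG recombinase, and pass through a stage that carries both CD4 and CD8. Most cells of that double-positive stage die. The few that are selected by MHC molecules on epithelial and dendritic cells mature, switch on KLF2 and its target S1PR1, and leave. Peripheral lymph nodes collect such naive T cells, and B cells, from the blood across high endothelial venules, and sort them into T cell zones and B cell follicles under chemokines made by stromal cells. The comparison sets an organ of T cell production against an organ of T and B cell residence.

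The arrays fell into their labelled groups. Correlations between arrays lay between 0.967 and 0.984 within thymus, between 0.969 and 0.979 within peripheral lymph node, and between 0.876 and 0.894 across the tissues. The 3' to 5' ratio of the Gapdh control probe sets, a measure of RNA integrity, was 1.01 to 1.12 in thymus and 1.36 to 2.02 in peripheral lymph node, and the groups did not overlap. The ratio of Actb was 1.34 to 1.78 in thymus and 1.65 to 1.85 in lymph node. The part of this difference in the results was not tested. Summed as a list mean, skeletal muscle transcripts reached 9.33 and 7.76 (log2) in the lymph node arrays of mice 1 and 3 and 7.07 in the thymus array of mouse 2, against 5.45 to 5.65 in the other 5 arrays.

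Levels below are log2(intensity + 16) after quantile normalization, so that 1 unit is a 2-fold difference for bright probe sets. Differences of dim probe sets are understated, and a probe set whose deposited value was 0 or less sits at exactly 4. Per-array values run from mouse 1 to mouse 4. Of 27022 probe sets tested with limma, paired by mouse, 8196 (30.3%) were higher and 7496 (27.7%) lower in thymus at a Benjamini-Hochberg adjusted p under 0.05, which is 58.1% of those tested. With at least a 2-fold difference as well, 3298 (12.2%) were higher and 3366 (12.5%) lower. The 4 thymus values lay apart from the 4 lymph node values for 55.9% of the probe sets. The median difference of all probe sets tested was 0.01, and -0.10 when the arrays were only set to a common median, so small differences depend on the scaling. When each of 12919 genes was taken by its brightest probe set, 953 (7.38%) were at least 2-fold higher and 2110 (16.3%) at least 2-fold lower, with a median of -0.13. Regardless of size, 2949 (22.8%) were called higher and 4540 (35.1%) lower. The counts for gene lists given below are over such genes. The plot of fold change against level shows where 6 of the lists fall.

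**Figure D1:**
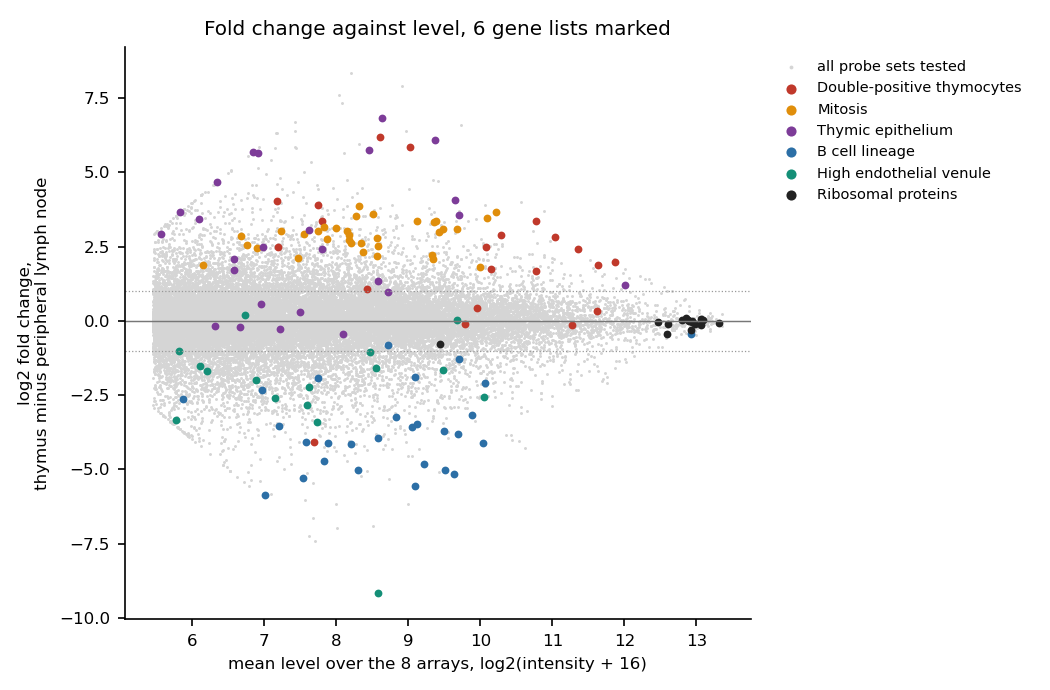
The log2 difference of thymus minus peripheral lymph node (y axis) is plotted against the mean level over the 8 arrays (x axis) for all 27022 probe sets tested in grey, with members of 6 gene lists in colour and 2-fold differences as dotted lines. Double-positive thymocyte, mitosis and thymic epithelium genes lie mainly above 0, B cell and high endothelial venule genes mainly below, and ribosomal protein genes near 0.

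The genes of receptor gene assembly stood at the top of the thymus. Rag1, a subunit of the recombinase that cuts T and B cell receptor genes, had levels of 12.94, 12.79, 12.93 and 12.84 in thymus, against 5.51, 5.06, 4.89 and 4.35 in lymph node. The difference was 7.92 ± 0.18 (SE; adjusted p = 1.4e-05 by limma), and no lymph node array came near any thymus array. Rag2, its partner, read 10.36, 10.06, 9.93 and 9.88 in thymus, against 4.00, 4.00, 4.44 and 4.45 in lymph node, and was deposited at 0 or less on 2 of the 4 lymph node arrays. Dntt, the enzyme that adds random bases at the joins, had 13.06, 13.07, 13 and 13 in thymus, against 6.67, 6.31, 6.33 and 6.43 in lymph node. Ptcra, the invariant chain that pairs with a new TCR beta chain, had 8.96, 9.13, 9.32 and 9.27 in thymus, against 4.00, 4.87, 4.36 and 5.17 in lymph node. Lig4, the ligase that seals the joins, was 3.49 higher (SE 0.11, n = 4 mice) in thymus. Of the 9 members of the recombination list that were tested, 8 rose in thymus and 6 rose at least 2-fold, with a median of 3.49. The 8 include Cd3e, a receptor chain described further on, which rose by 0.84. Xrcc4, which works with Lig4, differed by only 0.34 (adjusted p = 0.0269 by limma), and that call was lost without any 1 of the 4 mice. Prkdc, the kinase of the same joining pathway, was not called (-0.14, adjusted p = 0.222 by limma).

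Genes that mark double-positive thymocytes rose with them. Of 21 measured, 18 were called higher in thymus and 16 at least 2-fold higher, with a median of 2.42. Arpp21, a phosphoprotein abundant in double-positive cells, had 11.66, 11.68, 11.71 and 11.79 in thymus, against 5.58, 5.59, 5.33 and 5.55 in lymph node. Endou, an endoribonuclease, had 12.05, 11.99, 11.87 and 11.91 in thymus, against 6.12, 5.55, 6.51 and 6.18 in lymph node. Ccr9, the receptor for the thymic chemokine CCL25, had 12.49, 12.40, 12.47 and 12.45 in thymus, against 9.31, 8.97, 9.05 and 9 in lymph node. All 3 genes were separated by several units in every mouse. The coreceptors themselves differed less, and T cells of lymph node carry them too. Cd8a had 12.40, 12.43, 12.45 and 12.57 in thymus, against 9.57, 9.78, 9.41 and 9.72 in lymph node, Cd8b1 differed by 1.90 ± 0.09 (SE; adjusted p = 4.96e-05 by limma), and Cd4 had 11.19, 11.03, 10.85 and 11.01 in thymus, against 9.70, 9.57, 8.46 and 9.32 in lymph node. Themis, which sets the strength of TCR signals during selection, was 2.48 higher, Satb1, a chromatin organiser of thymocytes, 2 higher, and Tcf12, the E protein HEB, 1.70 higher. Cldn5, an endothelial tight junction protein placed on this list, went the other way. It had 5.74, 5.02, 5.83 and 6.01 in thymus, against 9.80, 9.75, 9.71 and 9.67 in lymph node. Cd1d1, which selects NKT cells, and Ly6d were not called, at -0.11 and -0.12.

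Ptcra is shown with its upstream sequence because E proteins such as HEB are known to bind the E-box CAGCTG at this gene. The sequence is from RefSeq, GRCm38.p6, chr17:46763713-46763832 on the minus strand, 120 bases up to the annotated start, and capitals mark CAGCTG, which reads the same on both strands.
Ptcra: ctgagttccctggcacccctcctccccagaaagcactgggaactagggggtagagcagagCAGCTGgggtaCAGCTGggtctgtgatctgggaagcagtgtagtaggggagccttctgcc
It held 2 copies, 60 and 49 bases before the start. In windows of 300 bases around the start, 3 of 8 recombination genes with a promoter in the table held CAGCTG (37.5%), against 18.3% of 27025 genes.

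The early progenitor list did not move as 1 block. Of the 18 members tested, 4 rose and 10 fell, against 22.8% and 35.1% of all genes, with a median of -0.50. Those that rose were regulators that T lineage cells keep: Myb, a transcription factor of dividing progenitors, had 12.55, 12.52, 12.54 and 12.66 in thymus, against 8.59, 8.60, 8.37 and 8.70 in lymph node. Bcl11b, which fixes T cell identity, was 2.13 higher, Gata3, needed for CD4 lineage cells, 1.89 higher, and Notch1 0.95 higher. Those that fell the most are also known from B cells and other haematopoietic cells, and the part of such cells in these falls was not tested. Hhex, a homeobox factor, had 6.07, 5.94, 5.67 and 5.73 in thymus, against 10.29, 10.51, 10.08 and 10.54 in lymph node. Lmo2, a LIM adaptor also known from germinal centre B cells, had 6.41, 6.41, 5.83 and 6.49 in thymus, against 10.37, 10.85, 10.27 and 10.48 in lymph node. Lyl1 was -3.56 (log2, thymus minus lymph node) and Dtx1, a Notch target that marginal zone B cells share, was -2.21. Il2ra, a marker of double-negative thymocytes, had 7.12, 7.08, 7.56 and 7.71 in thymus, against 6.95, 6.99, 6.95 and 6.76 in lymph node, a difference that was not called (adjusted p = 0.0628 by limma) although the groups did not overlap; it was called without the pairing (adjusted p = 0.032 by limma), and its other probe set was called higher at 0.59.

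Selection genes were divided as well: 12 of 20 rose and 6 fell, against 22.8% and 35.1% of all genes. Tox, a regulator of CD4 lineage development, had 9.80, 9.76, 9.72 and 9.64 in thymus, against 8.10, 7.89, 8.62 and 7.82 in lymph node. Rasgrp1, which couples the TCR to Ras, rose by 1.31 and Itm2a, a gene induced by positive selection, by 1.26. Egr3, induced by TCR signals, had 7.39, 7.35, 7.43 and 7.62 in thymus, against 9.92, 9.87, 9.53 and 9.65 in lymph node. Runx3 and Zbtb7b, the factors of mature CD8 and CD4 lineages, were -1.79 and -2.71 in the same order of subtraction. Cd69, a marker of recent signalling, was not called (-0.17). Among 12 BCL2 family genes, Bcl2l1, which keeps double-positive cells alive, had 10.37, 10.36, 10.10 and 10.06 in thymus, against 9.09, 8.46, 8.97 and 8.75 in lymph node. Bcl2, the survival factor of mature lymphocytes, had 7.94, 8.23, 8.09 and 8.30 in thymus, against 9.99, 9.83, 9.46 and 9.82 in lymph node. Only 3 of the 5 Bcl2 probe sets were called lower, and the 5 differences ran from -1.64 to 0. Pmaip1, the death gene Noxa, was lower in thymus by 2.63 units, and Bcl2l11, the death gene Bim, was not called by its brightest probe set (0.13), while 3 of its 5 were called higher, by up to 0.98. Mcl1 was -0.48, with 1 of its 6 probe sets called the other way.

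Components of the T cell receptor were present in both organs and moderately higher in thymus. Of 17 genes, 14 rose and 7 of them at least 2-fold, with a median of 0.85. The CD3 chains, which carry the signal across the membrane, differed by less than 1 unit: Cd3d by 0.61 ± 0.10 (SE; adjusted p = 0.00411 by limma), Cd3e by 0.84 ± 0.10 (SE; adjusted p = 0.00116 by limma) and Cd3g by 0.81 ± 0.09 (SE; adjusted p = 0.000688 by limma). Cd3e, for example, had 11.39, 11.46, 11.58 and 11.28 in thymus, against 10.49, 10.63, 10.56 and 10.65 in lymph node. Cd247, the zeta chain, rose by 1.33, Lat, the adaptor that ZAP70 phosphorylates, by 1.21, and Zap70 by 0.69. Only 2 of 3 Zap70 probe sets were called higher, and the lowest difference was 0.1. The larger differences were in Trat1 (2.20), which stabilises the receptor, Cd28 (1.64), the costimulatory receptor, and Sit1 (1.44), an inhibitory adaptor. Cd2, an adhesion molecule, was the 1 member that fell, with 9.93, 9.71, 9.87 and 9.93 in thymus, against 10.45, 10.50, 10.57 and 10.52 in lymph node. The calls of Cd3d and Zap70 were lost on the values as deposited, and that of Cd3d at a common median too.

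**Figure D2:**
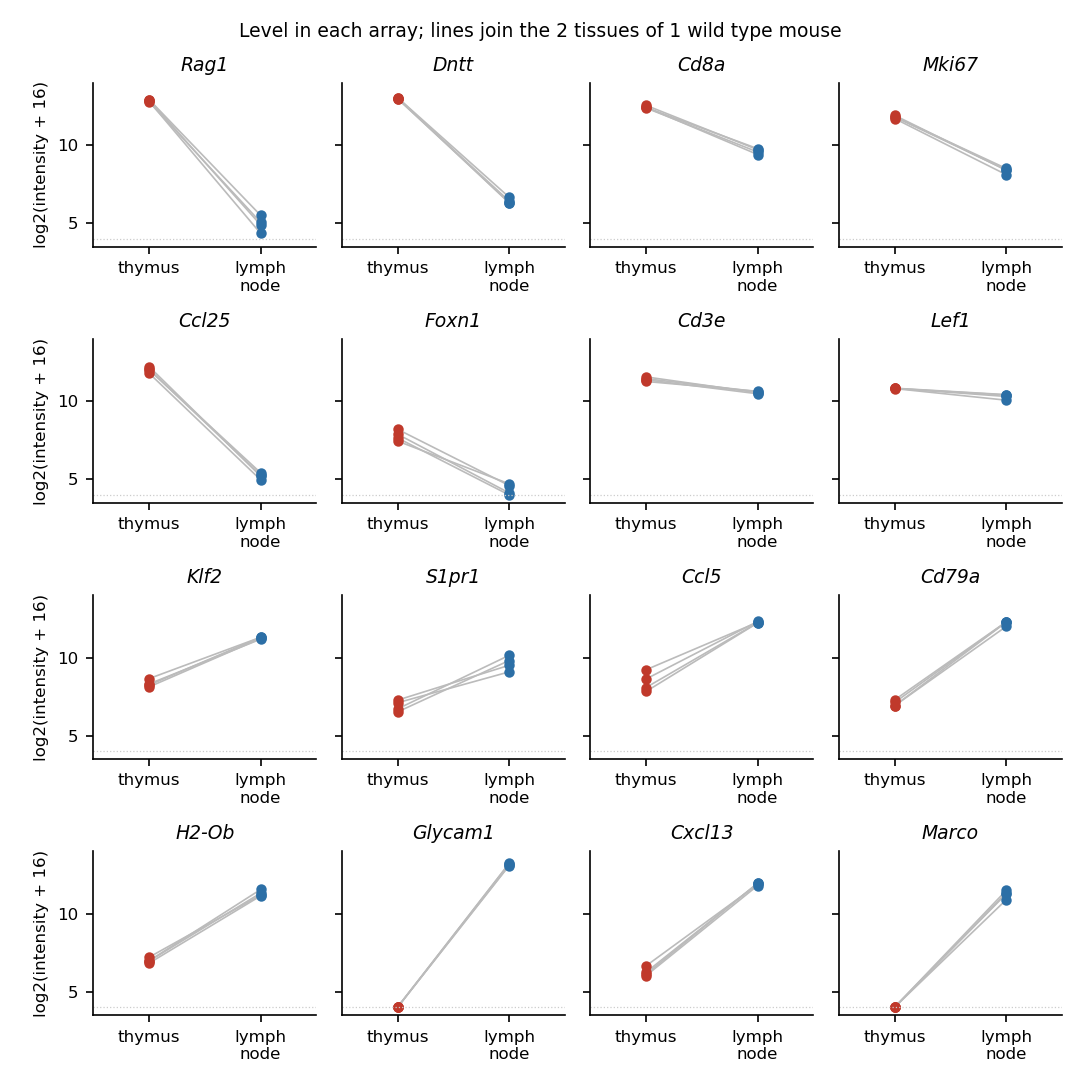
Levels, log2(intensity + 16), of 16 genes in the 4 thymus arrays (left, red) and the 4 peripheral lymph node arrays (right, blue), with a line for each wild type mouse and the floor of 4 dotted. The 4 thymus values lie apart from the 4 lymph node values in all 16 panels, as for 55.9% of probe sets tested. Rag1, Dntt, Ccl25, Glycam1, Cxcl13 and Marco were picked from genes whose groups did not overlap, so their separation is no separate result. Cd3e and Lef1 differ by less than 1 unit.

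Cell division genes were higher in thymus without exception. All 34 measured mitosis genes rose at least 2-fold in thymus, between 1.82 and 3.86 on the log2 scale with a median of 2.91, and all 34 did so in each fit that left out 1 or 2 mice. Cenpf, a kinetochore protein of G2 and mitosis, had 10.34, 10.32, 10.25 and 10.08 in thymus, against 6.52, 6.47, 6.36 and 6.19 in lymph node. Top2a, the topoisomerase that untangles sister chromatids, had 12.06, 12.10, 12.09 and 11.94 in thymus, against 8.45, 8.56, 8.31 and 8.22 in lymph node. Mki67, the antigen Ki-67 found in cycling cells, had 11.93, 11.83, 11.84 and 11.72 in thymus, against 8.40, 8.43, 8.52 and 8.12 in lymph node. The lymph node levels of these 3 genes were above the floor of 4 on every array. Their groups did not overlap, as for 55.9% of probe sets tested. Cdk1, the mitotic kinase, rose by 3.09 ± 0.11 (SE; adjusted p = 2.49e-05 by limma), its partners Ccna2 and Ccnb2 by 1.82 and 3.36, and the spindle motor Kif11 by 3.54.

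DNA replication genes followed. Of 35, 33 rose and 28 at least 2-fold, with a median of 1.66. Dtl, which marks replication proteins for destruction on DNA, had 8.94, 9.07, 9.04 and 8.79 in thymus, against 4.89, 4.69, 4.95 and 4.38 in lymph node, the widest gap of the list, although 2 of its 5 probe sets were not called. Uhrf1, which copies DNA methylation, had 11.10, 10.96, 10.99 and 10.70 in thymus, against 7.89, 7.64, 7.82 and 7.32 in lymph node. Pcna, the sliding clamp, had 12.80, 12.83, 12.77 and 12.73 in thymus, against 11.38, 11.50, 11.09 and 11.40 in lymph node, and Mcm7, a helicase subunit, rose by 1.67. Of the E-type cyclins, Ccne2 had 9.52, 9.49, 9.49 and 9.08 in thymus, against 6.41, 6.32, 6.20 and 5.76 in lymph node. Ccne1 had 9.37, 9.45, 9.50 and 9.30 in thymus, against 9.09, 9.27, 9.61 and 9.61 in lymph node by its brightest probe set, which was not called, while its other probe set was called higher at 1.04. Pold1, a polymerase subunit, was not called by its brightest probe set (0.28), and its other was called higher at 0.36. Of 18 repair genes, 11 rose and none fell. Xrcc6, the Ku70 end-binding protein, had 11.21, 11.28, 11.29 and 11.26 in thymus, against 8.07, 8.02, 8.31 and 8.10 in lymph node. Xrcc5, its Ku80 partner, had 7.56, 7.60, 7.70 and 7.39 in thymus, against 7.40, 7.42, 7.42 and 6.92 in lymph node, and was not called (adjusted p = 0.0602 by limma). Chek1, the replication checkpoint kinase, rose by 2.79, Msh6, of mismatch repair, by 2.16, and Brca1 by 1.79. Only 2 of 3 Brca1 probe sets were called higher, and the lowest difference was 0.28. Of 16 chromatin genes, 13 rose and none fell, among them Ezh2, the Polycomb methyltransferase (2.56), H2ax (2.24) and Hells (2.20).

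Promoter sequences of cell cycle genes are shown because 2 elements, the CCAAT box and the cell cycle genes homology region TTTGAA, are known in this class, and Top2a, Cdk1 and Kif11 were picked because they hold both. The 3 sequences are the 120 bases before the annotated start in GRCm38.p6, from RefSeq, with CCAAT and TTTGAA in capitals on either strand (ATTGG and TTCAAA on the printed strand are the same elements read from the other one).
Top2a, chr11:99024190-99024309, minus strand: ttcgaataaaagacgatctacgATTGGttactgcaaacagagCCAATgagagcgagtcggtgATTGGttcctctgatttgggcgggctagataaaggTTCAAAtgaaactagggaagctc
Cdk1, chr10:69352913-69353032, minus strand: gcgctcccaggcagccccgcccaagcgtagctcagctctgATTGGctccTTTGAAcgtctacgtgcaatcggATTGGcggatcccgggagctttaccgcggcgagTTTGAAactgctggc
Kif11, chr19:37376262-37376381, plus strand: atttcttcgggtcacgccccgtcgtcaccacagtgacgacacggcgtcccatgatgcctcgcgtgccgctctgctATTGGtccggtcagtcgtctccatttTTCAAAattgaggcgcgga
In Top2a, CCAAT lay 98, 78 and 58 bases before the start and TTTGAA 23 bases before it, and the motifs shared no base in any of the 3. Of 28 mitosis genes with a promoter in the table, 21 held TTTGAA (75%), against 20.2% of 27025 genes, and 21 held CCAAT (75%), against 41.1%. Both were in 18 of them (64.3%), against 8.97% of genes. For replication genes, the E2F site core TTCCCGC was found in 14 of 30 promoters (46.7%), against 5.29% of genes. It is shown in capitals for Uhrf1 and Dtl, the genes of that list with the largest differences.
Uhrf1, chr17:56303217-56303336, plus strand: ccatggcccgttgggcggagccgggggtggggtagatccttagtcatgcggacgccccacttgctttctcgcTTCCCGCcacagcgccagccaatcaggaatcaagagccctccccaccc
Dtl, chr1:191575545-191575664, minus strand: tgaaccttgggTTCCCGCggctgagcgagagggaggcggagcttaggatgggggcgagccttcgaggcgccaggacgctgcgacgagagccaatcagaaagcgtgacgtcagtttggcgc
These matches describe the windows, and binding was not measured.

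Genes of thymic epithelium were higher in thymus, and several lay at or near the floor in lymph node. Of 32 epithelial genes with a probe set, 25 passed the filter on low values, and 20 of these rose and none fell, with a median of 2.49. Without that filter, 21 of the 32 were at least 2-fold higher and 1 at least 2-fold lower. Ccl25, the chemokine that draws CCR9-bearing progenitors, had 12.03, 12.24, 11.82 and 12.06 in thymus, against 5.42, 5.21, 4.97 and 5.28 in lymph node. Prss16, a serine protease of cortical epithelium, had 12.53, 12.47, 12.32 and 12.34 in thymus, against 6.15, 6.26, 6.34 and 6.51 in lymph node. Tbata, a thymic stromal gene, had 11.46, 11.37, 11.23 and 11.24 in thymus, against 5.40, 5.50, 5.68 and 5.77 in lymph node, and Pax1, a factor of the pharyngeal pouch from which the thymus grows, had 9.93, 9.89, 9.61 and 9.55 in thymus, against 4.35, 4.00, 4.00 and 4.00 in lymph node. Foxn1, the master factor of thymic epithelium, was lower in level but as clear, with 7.90, 8.22, 7.66 and 7.46 in thymus, against 4.13, 4.61, 4.00 and 4.71 in lymph node. Trp63, a regulator of epithelial stem cells, rose by 2.49 and Ctsl, the cathepsin that prepares class II peptides in cortical epithelium, by 1.21. Krt5 and Krt14, of medullary cells, rose by 3.07 and 2.94. Krt8, of cortical cells, had 11.56, 11.69, 11.28 and 11.47 in thymus, against 8.20, 9.05, 6.18 and 8.22 in lymph node, and lymph node mouse 3 was well below the other 3. Epcam was not called by its brightest probe set (-0.45), while its other probe set was called higher at 0.88. Dll4, the Notch ligand of thymic epithelium, was not called (-0.28), and blood vessels also make it. Hoxa3 was not called either (-0.15).

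The catalytic proteasome subunits differed by type. Psmb11, the subunit of the thymoproteasome found in cortical epithelium, had 9.83, 9.87, 9.56 and 9.51 in thymus, against 4.00, 4.00, 4.00 and 4.00 in lymph node, with every lymph node array deposited at 0 or less. The interferon-induced subunits Psmb9 and Psmb10 fell by 0.72 and 0.70, Psmb8 was -0.27, and the constitutive Psmb6 and Psmb7 were 0.34 and 0.37. Psmb5 was not called (0.17). The calls of Psmb8 and Psmb6 were lost without any 1 mouse, and those of Psmb6 and Psmb7 at a common median. Among the 12 largest rises were also 2 genes outside the lists: Fcgbp, an IgG Fc-binding mucus protein, with 9.16, 9.20, 9.54 and 10.26 in thymus, against 4.00, 4.00, 4.00 and 4.00 in lymph node, and H2-Q2, a class Ib MHC gene, with 9.85, 9.76, 9.97 and 9.66 in thymus, against 4.13, 4.82, 4.32 and 4.27 in lymph node. The 12 largest rises and 12 largest falls were picked from genes whose groups did not overlap, so their separation is no result of its own. Srpk3, a kinase known from muscle, was among the 12 largest falls, with 5.15, 4.79, 4.85 and 5.01 in thymus, against 10.24, 10.52, 10.26 and 10.60 in lymph node. Pth, the parathyroid hormone, had 9.44, 9.59, 7.84 and 7.03 in thymus, against 4.80, 4.08, 5.10 and 4.80 in lymph node, and the thymus arrays of mice 1 and 2 were above those of mice 3 and 4.

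Genes of naive T cell survival and exit were lower in thymus. Of 13, 9 fell and 8 of them at least 2-fold, with a median of -1.59. Klf2, the factor that licenses exit, had 8.12, 8.24, 8.31 and 8.65 in thymus, against 11.23, 11.31, 11.18 and 11.30 in lymph node. S1pr1, the receptor that follows sphingosine 1-phosphate out of the organ, had 6.51, 6.71, 7.10 and 7.27 in thymus, against 9.81, 10.14, 9.08 and 9.51 in lymph node. Ccr7, which guides T cells into T zones, had 7.54, 7.71, 8.55 and 8.83 in thymus, against 10.77, 10.88, 10.79 and 10.63 in lymph node, and the thymus arrays of mice 3 and 4 were above those of mice 1 and 2. Il7r, the receptor for the survival cytokine IL-7, was -2.13 and Foxo1, which drives Klf2 and Il7r, -1.59. Dapl1, abundant in resting naive T cells, had 6.02, 5.76, 5.87 and 6.49 in thymus, against 9.99, 10.49, 10.81 and 10.59 in lymph node. The 4 members that rose were Satb1, Cd27 by 1.99, Klf3 by 0.62 and Lef1 by 0.52. Lef1, shared by thymocytes and naive T cells, had 10.85, 10.84, 10.84 and 10.83 in thymus, against 10.44, 10.42, 10.32 and 10.08 in lymph node, and its call was lost on the values as deposited and at a common median. The GIMAP proteins, GTPases of lymphocyte survival, fell in 7 of 8 cases. Gimap3 had 8.34, 8.29, 8.47 and 8.66 in thymus, against 11.29, 11.25, 11.04 and 11.16 in lymph node, and Gimap4 was -2.44 and Gimap7 -2.21. Gimap9 was not called (0.20).

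Genes of experienced and cytotoxic T cells were also lower. Of 14 activated and memory genes, 13 fell, 12 at least 2-fold, and none rose. Ccl5, the chemokine RANTES stored by memory CD8 T cells, had 7.83, 8.08, 8.63 and 9.22 in thymus, against 12.23, 12.24, 12.32 and 12.27 in lymph node. Il18r1, which responds to IL-18, was -2.81, Ccr2 -1.93 and Maf -1.96. Il2rb, the shared IL-2 and IL-15 receptor chain, had 5.62, 6.34, 6.28 and 4.72 in thymus, against 9.04, 8.83, 8.79 and 8.77 in lymph node. Of the 14 NK and cytotoxic genes tested, 12 fell. Klrd1, the CD94 chain of NK receptors, had 6.87, 6.90, 7.35 and 6.73 in thymus, against 9.82, 10.11, 10.14 and 10.00 in lymph node, and Nkg7, a granule protein, was -2.55 and Ctsw, a cathepsin of cytotoxic cells, -1.94. Gzma, the protease granzyme A, rose instead, with 10.70, 10.75, 10.53 and 10.55 in thymus, against 9.10, 9.47, 9.39 and 8.98 in lymph node. Regulatory T genes fell in 10 of 14 cases. Foxp3, their defining factor, was dim in both, with 5.53, 5.67, 5.47 and 5.51 in thymus, against 6.71, 6.74, 6.32 and 6.73 in lymph node. Izumo1r, the folate receptor 4 of regulatory T cells, had 4.00, 4.00, 4.00 and 4.87 in thymus, against 8.70, 8.31, 8.90 and 8.45 in lymph node. Capg, an actin-capping protein, was -2.66 and Tnfrsf4, the costimulatory receptor OX40, -1.94. Ikzf2, the factor Helios, which many thymocytes also express, rose by 1.57.

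B cell genes fell in every case. All 28 measured were called lower, with a median of -3.76. At least 2-fold lower were 26 of them, and 26 were so in each fit that left out 1 or 2 mice. The smallest fall was that of Cd74 (-0.42), which is also counted with MHC class II. Its call was lost without mouse 1 or without mouse 2. Cd79a, a chain of the B cell receptor complex, had 7.12, 6.91, 6.91 and 7.28 in thymus, against 12.28, 12.27, 12.00 and 12.29 in lymph node. Ms4a1, the antigen CD20, had 6.89, 6.57, 7.09 and 7.43 in thymus, against 12.04, 12.11, 11.85 and 12.06 in lymph node. Cr2, the complement receptor of mature B cells, had 4.42, 5.23, 5.18 and 4.74 in thymus, against 10.26, 10.41, 9.72 and 10.35 in lymph node, and Fcer2a, the low-affinity IgE receptor CD23, had 5.42, 5.75, 6.22 and 5.82 in thymus, against 10.67, 11.03, 10.58 and 10.95 in lymph node. The thymus levels of Cd79a and Ms4a1 were above the floor of 4 on every array. Fcrl1, a receptor of mature B cells, read 4.00, 4.00, 4.00 and 4.34 in thymus, against 9.83, 10.17, 9.74 and 10.03 in lymph node, and was deposited at 0 or less on 3 thymus arrays. Fcmr, the IgM Fc receptor, was -5.56, and Cd79b, the partner of Cd79a, -4.12. Pax5, the factor of B cell identity, was dim, with 5.20, 4.00, 4.00 and 5.07 in thymus, against 7.21, 6.93, 7 and 7.57 in lymph node. Cxcr5, which follows CXCL13 into follicles, was -4.72.

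Antibody genes differed in direction. Igha, the IgA constant region, was higher in thymus, with 11.08, 12.89, 11.23 and 10.99 in thymus, against 9.12, 10.22, 9.18 and 9.06 in lymph node, and mouse 2 was the highest in both tissues. The brightest of 8 Ighm probe sets was not called (0.18), while 6 of the 8 were called lower, by up to 2.56, and 1 higher. Jchain, which joins IgA and IgM, was not called (-0.21), nor was Xbp1 (-0.02), the factor of antibody secretion. Edem1, which clears misfolded proteins from the endoplasmic reticulum, was the 1 plasma cell list member that rose, by 2.12 ± 0.09 (SE; adjusted p = 3.82e-05 by limma). Of the 16 plasma cell genes, 8 fell, among them Mzb1, a chaperone of antibody assembly (-2.76), and Txndc5, a disulphide isomerase (-1.61). Ighv14-2, a variable segment among the 12 largest falls, had 5.76, 5.74, 6.03 and 6.08 in thymus, against 12.06, 12.19, 11.96 and 12.11 in lymph node. Probe sets for immunoglobulin segments can share sequence, so their levels are uncertain.

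MHC class II genes were lower in thymus. All 9 MHC class II genes tested fell and 6 at least 2-fold, with a median of -1.79, but the size differed by role. H2-Ob, a chain of the peptide-loading inhibitor DO that B cells make, had 6.83, 6.98, 6.96 and 7.21 in thymus, against 11.14, 11.55, 11.32 and 11.19 in lymph node. H2-DMb2 and H2-DMa, chains of the peptide-loading catalyst, were -2.52 and -2.52. H2-Aa, a chain of the presenting molecule itself, had 12.00, 11.95, 12.00 and 12.19 in thymus, against 12.92, 12.97, 12.80 and 12.93 in lymph node, and Cd74, the invariant chain, had 12.68, 12.67, 12.66 and 12.85 in thymus, against 13.16, 13.23, 13.11 and 13.07 in lymph node. Ciita, the class II transactivator, was -1.79. The Cd74 call was lost without mouse 1 or without mouse 2. Of 15 genes of class I and its peptide supply, 10 fell, 3 of them at least 2-fold, against 16.3% of all genes, and 1 rose, the transporter chain Tap2 by 0.34. Nlrc5, the class I transactivator, was -1.89, and the other transporter chain Tap1 and its partner Tapbp were -1.19 and -1.21. The second Tapbp probe set was not called (-0.2). B2m, the common light chain, was not called (-0.15).

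Class II promoters are shown because a conserved module that ends in a CCAAT box is known to drive them together with CIITA. The sequences are the 120 bases before the annotated start in GRCm38.p6, from RefSeq, with the motif in capitals; all 3 carry it on the opposite strand, as ATTGG.
H2-Ob, chr17:34238785-34238904, plus strand: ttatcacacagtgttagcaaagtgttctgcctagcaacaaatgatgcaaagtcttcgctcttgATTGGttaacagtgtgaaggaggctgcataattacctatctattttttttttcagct
H2-Aa, chr17:34287824-34287943, minus strand: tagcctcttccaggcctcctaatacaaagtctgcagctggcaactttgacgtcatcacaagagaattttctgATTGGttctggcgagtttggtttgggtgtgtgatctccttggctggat
H2-DMb2, chr17:34145129-34145248, plus strand: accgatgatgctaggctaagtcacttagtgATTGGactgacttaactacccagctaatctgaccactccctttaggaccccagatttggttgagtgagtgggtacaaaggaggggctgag
All 6 list genes with a promoter in the table held CCAAT, against 41.1% of genes. It lay 57, 48 and 90 bases before the start in these 3.

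Vessel genes of the lymph node were lower in thymus. Of 16 genes of high endothelial venules tested, 14 fell, each at least 2-fold, and none rose. The filter on low values had left out 2 of 18 with a probe set, and without it 13 were at least 2-fold lower. Glycam1, a mucin that carries the sugar ligand of L-selectin on these venules, had 4.00, 4.00, 4.00 and 4.00 in thymus, against 13.22, 13.22, 13.09 and 13.12 in lymph node, the largest difference of the 12919 genes. Because its 4 thymus values were deposited at 0 or less, the difference of -9.16 on this scale depends on the constant added. Enzymes that build the ligand fell with it: Fut7, a fucosyltransferase, had 4.00, 4.00, 4.44 and 4.00 in thymus, against 7.61, 7.55, 7.18 and 7.43 in lymph node, Gcnt1, which branches the sugar chain, was -2.83, and Chst4, which sulphates it, was -1.98. Cdh5, the cadherin of all endothelium, was -3.41, and 1 of its 2 probe sets was not called. Ctsh, a cathepsin, was -2.57. Lyve1, a hyaluronan receptor of lymphatic vessels, had 5.16, 4.82, 4.20 and 4.04 in thymus, against 10.38, 11.03, 10.16 and 10.73 in lymph node. Flt4, the receptor of lymphatic growth, was -4.12 and Stab2, a scavenger receptor of sinus endothelium, -2.43. Lrg1, a secreted glycoprotein made by high endothelial cells, had 5.52, 5.03, 4.00 and 5.09 in thymus, against 11.11, 11.18, 10.89 and 11.12 in lymph node.

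Stromal genes of the lymph node were lower in thymus as well: 14 of 16 fell, 11 at least 2-fold. Cxcl13, the chemokine of B cell follicles, had 6.65, 6.12, 6.03 and 6.24 in thymus, against 11.88, 11.96, 11.81 and 11.95 in lymph node. Clu and Mfge8, products of follicular dendritic cells, were -4.27 and -3.04, and Il33, a cytokine of fibroblastic reticular cells, -3.09. Il7 was not called, with 7.97, 8.11, 7.66 and 7.72 in thymus, against 7.97, 8.12, 7.92 and 8.01 in lymph node, and Cxcl12, which both organs use to hold lymphocytes, differed by -0.44. Matrix genes fell in 23 of 24 cases, and 20 fell at least 2-fold. Pcolce, which promotes collagen processing, was -3.36, Pdgfra, a receptor of fibroblasts, -3.19, Bgn, the proteoglycan biglycan, -2.57, and Col1a1 -2.53. Thy1, a surface protein of thymocytes as well as fibroblasts, was the 1 member that rose, with 13.08, 13.09, 12.98 and 13.03 in thymus, against 11.82, 11.66, 11.43 and 11.66 in lymph node. Adipocyte transcripts moved with this group: the mean of the list was 7.56 to 8.39 in thymus and 8.86 to 10.13 in lymph node, and 9 of its 12 tested genes fell, among them Lpl, lipoprotein lipase (-2.01), and Fabp4, a fatty acid carrier (-1.74). The part of adipocyte RNA in the matrix difference was not tested.

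Myeloid genes were lower too. Of 22 macrophage and monocyte genes, 20 fell, 17 of them at least 2-fold. Marco, a scavenger receptor of medullary macrophages in lymph node, had 4.00, 4.00, 4.00 and 4.00 in thymus, against 11.32, 11.49, 10.89 and 11.27 in lymph node. Timd4, a receptor for dying cells, had 6.53, 6.54, 6.72 and 7.11 in thymus, against 11.26, 11.56, 11 and 11.26 in lymph node, Siglec1, of sinus macrophages, was -3.05, and Cd209b, a lectin of the same cells, had 4.59, 4.71, 4.23 and 4.56 in thymus, against 11.69, 11.87, 10.94 and 11.42 in lymph node. Csf1r, the receptor that maintains macrophages, was -2.11. Cd163, a haemoglobin scavenger, rose instead by 1.36 ± 0.11 (SE; adjusted p = 0.000222 by limma). Of 21 dendritic cell genes, 18 fell. Clec10a, a lectin of dermal and migratory dendritic cells, had 4.93, 4.00, 4.00 and 4.03 in thymus, against 9.78, 9.82, 9.36 and 9.52 in lymph node, Irf8, a factor of dendritic cell development, was -2.18, Tlr3, a sensor of double-stranded RNA, -2.63, and Fscn1, of mature migratory dendritic cells, was -2.91. Xcr1 of cross-presenting dendritic cells was not called, with 5.63, 5.58, 6.04 and 6.17 in thymus, against 5.92, 5.86, 6.12 and 5.31 in lymph node. Of 10 mast cell genes with a probe set, 6 passed the filter on low values and all 6 fell at least 2-fold. Without the filter 6 of the 10 did, with a median of -1.08. Mcpt4, a mast cell protease, was at the floor on all 4 thymus arrays and had 7.58, 7.80, 6.83 and 7.29 in lymph node. Cma1, a chymase, was -3.62, and Kit, the stem cell factor receptor, -1.10. Complement genes fell in 12 of 13 cases, each at least 2-fold, with a median of -3.05. Cfb, of the alternative pathway, had 5.37, 5.33, 6.01 and 6.45 in thymus, against 10.55, 10.77, 10.23 and 10.44 in lymph node. Cd55, which shields cells from complement, was -4.46, C1ra, a protease of the classical pathway, -3.55, and Cfp, properdin, -2.67. The second Cfp probe set was not called (-0.15).

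Interferon-response genes were lower in thymus, but unevenly among the mice. Of 21 tested, 15 fell and 12 at least 2-fold. The list mean was 7.57, 7.71, 7.77 and 7.89 in thymus, against 9.33, 9.01, 8.46 and 8.17 in lymph node, so the lymph nodes of mice 1 and 2 stood above those of mice 3 and 4. With mice 1 and 2 alone 17 members fell at least 2-fold, with mice 3 and 4 alone 4 did, and with mice 2 and 4 alone 6 did, choices of mice made after seeing the data. Without mouse 1, without mouse 2, and without the filter on low values, 8 did. Gbp3, a guanylate-binding GTPase, had 7.22, 7.78, 7.95 and 7.52 in thymus, against 10.18, 10.18, 10.05 and 9.35 in lymph node, and Mx1, an antiviral GTPase, had 5.96, 5.90, 6 and 6.11 in thymus, against 8.69, 8.52, 7.83 and 7.78 in lymph node. Bst2, the virus tether, was -1.59. Ifit1 had 8.09, 8.32, 8.44 and 8.56 in thymus, against 9.89, 9.28, 8.22 and 7.81 in lymph node and was not called. Stat2, a carrier of the interferon signal, was called higher by 0.96, with its second probe set called lower. Its call was lost without the filter, without mouse 3 and without mouse 4. The interferon-stimulated response element is shown for Gbp3 and Bst2 because the genes of this list are known for it. The core searched on both strands was GAAA, any 2 bases and GAAA again, and capitals mark it in 120 bases of GRCm38.p6 from RefSeq.
Gbp3, chr3:142559924-142560043, plus strand, up to the annotated start: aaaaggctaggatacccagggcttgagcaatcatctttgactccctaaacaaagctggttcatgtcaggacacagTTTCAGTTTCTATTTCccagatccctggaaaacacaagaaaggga
Bst2, chr8:71537493-71537612, minus strand, upstream of the annotated start: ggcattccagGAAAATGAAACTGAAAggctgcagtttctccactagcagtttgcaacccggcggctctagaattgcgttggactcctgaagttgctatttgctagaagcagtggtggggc
Both hold 2 overlapping copies. The core was in 13 of 18 promoters of the list (72.2%), against 3.99% of genes.

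The ligand and receptor around which the series was built were dim in both organs. Tnfsf8, CD30 ligand, had 6.28, 5.99, 6.04 and 6.13 in thymus, against 6.42, 6.34, 6.59 and 6.38 in lymph node, a difference of -0.32 ± 0.11 (SE; adjusted p = 0.0448 by limma) that 9 of 13 alternative settings did not call. Tnfrsf8, the receptor CD30, had 6.24, 6.10, 6.10 and 6.08 in thymus, against 5.70, 5.84, 5.81 and 6.22 in lymph node, and was not called (adjusted p = 0.173 by limma). Of the 25 TNF family genes tested, 19 fell and 2 rose. The filter on low values had left out 6 of 31 with a probe set, and the median was -0.94 with it and -0.81 without it. Lta, lymphotoxin alpha, had 4.00, 4.93, 5.10 and 4.92 in thymus, against 7.89, 7.86, 8.11 and 7.94 in lymph node, and its partner Ltb was -1.68. Cd40, of B cells and dendritic cells, was -2.73, Tnfrsf13c, the BAFF receptor, -4.13, and Tnfrsf25, the death receptor DR3, -3.61. Tnfrsf1b, the second TNF receptor, was -2.13. Fas, a death receptor, rose, with 8.50, 8.43, 8.40 and 8.40 in thymus, against 7.68, 7.31, 7.55 and 6.55 in lymph node, as did Cd27. Downstream, 11 of 17 TRAF and NF-kB genes fell. Bcl3, Relb and Nfkb2, of the alternative pathway and its cofactors, were -3.12, -2.57 and -2, Traf5, an adaptor of TNF receptors, was -2.27, Rela was -0.56, and Traf4 rose by 1.35.

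**Figure D3:**
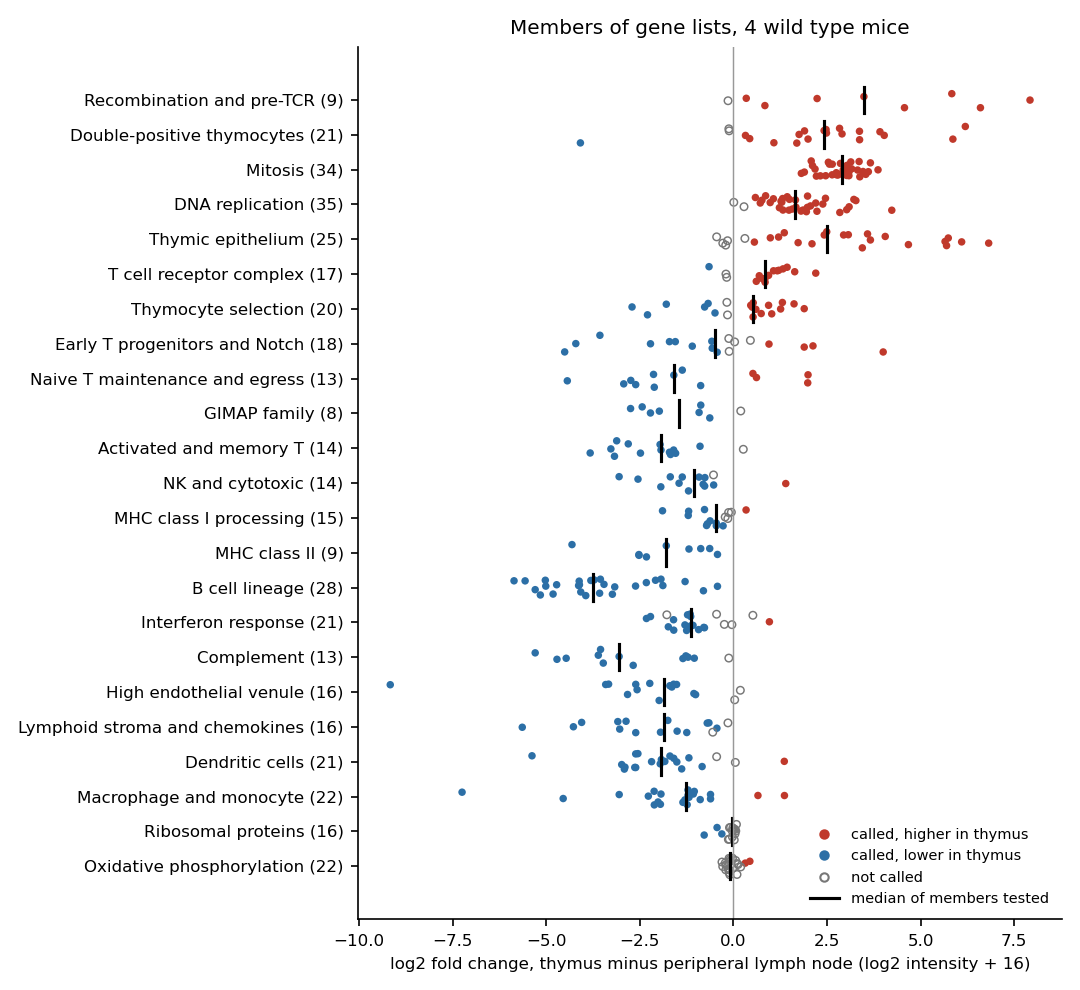
Each point is a gene's log2 difference, thymus minus peripheral lymph node (x axis), for 23 lists (y axis, with the number tested), red where called higher in thymus, blue where called lower, open where not called, and a bar at the median. All 34 mitosis genes lie to the right of 0 and all 28 B cell genes to the left, and the median lies at -0.03 for ribosomal proteins and at -0.09 for oxidative phosphorylation.

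The ribosomal and respiratory lists had medians near 0. None of 16 ribosomal protein genes rose and 3 fell, all by less than 2-fold, with a median of -0.03. Of 22 oxidative phosphorylation genes, 2 rose and none fell, with a median of -0.09. Among 14 glycolysis genes tested 8 fell, and 3 fell at least 2-fold, against 16.3% of all genes. These 3 were the glucose transporters Slc2a1 (-1.79) and Slc2a3 (-1.11), and Aldoc (-1.68). The ribosomal genes that fell were Rps6, Rps19 and Rps18, at -0.78, -0.43 and -0.31. The respiratory genes that rose were the ATP synthase subunits Atp5b and Atp5a1, at 0.44 and 0.32. Only 3 of 4 Rps18 probe sets and 1 of 3 Atp5a1 probe sets were called. The calls of Rps18 and Atp5a1 were lost without any 1 mouse and on the values as deposited, that of Atp5b on the values as deposited, and those of both subunits at a common median. Of 16 skeletal muscle genes tested 1 was called, the enolase Eno3 (-1.72), and their levels followed the single arrays named above. Without mouse 2, whose thymus array had the raised muscle list, 11 were at least 2-fold lower, and with mice 3 and 4 alone 6 were. Acta1, skeletal actin, had 5.68, 8.66, 5.49 and 4.00 in thymus, against 11.37, 5.03, 9.57 and 4.93 in lymph node. After normalization it was not called with all 4 mice (-1.77 ± 1.49 SE) but was without mouse 2, at -3.53 (adjusted p = 0.0256 by limma). On the values as deposited Acta1 was called with all 4 mice, at -1.82 (adjusted p = 1.6e-11 by limma). Among the adipocyte genes, Adipoq, the hormone adiponectin, had 9.32, 8.54, 9.63 and 8.41 in thymus, against 11.79, 11.55, 11.80 and 12.13 in lymph node. Ucp1, the uncoupler of brown fat, had 5.86, 8, 9.76 and 8.28 in thymus, against 6.88, 4.00, 11.27 and 4.00 in lymph node. After normalization Ucp1 was not called (1.44 ± 1.135 SE), but on the values as deposited it was, at 1.29 (adjusted p = 3.13e-06 by limma). With mice 2 and 4 alone, whose lymph node arrays had no raised muscle list, 9753 probe sets were called, with mice 1 and 2 alone 11720, and with mice 3 and 4 alone 11185. These fits of 2 mice were chosen after seeing the data, and the fit of all 4 mice called 15692.

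The other wild type tissues, fitted together with these on 16 arrays, place the members. Mean levels below are over 4 mice, each with its SD. Rag1 had 12.93 ± 0.07 in thymus, 4.94 ± 0.18 in mesenteric node, 5.81 ± 2.34 in spleen and 4.96 ± 0.49 in peripheral node, and 1 spleen reached 9.28. Mki67 had 11.85 ± 0.09 in thymus, 9.83 ± 0.24 in mesenteric node, 11.96 ± 0.32 in spleen and 8.37 ± 0.17 in peripheral node, and thymus and spleen were not called different by limma (difference -0.12 ± 0.17 SE, adjusted p = 0.593). For Top2a the order was thymus, spleen, mesenteric node and peripheral node, with 12.08 ± 0.08 in thymus, 9.53 ± 0.26 in mesenteric node, 10.81 ± 0.30 in spleen and 8.39 ± 0.15 in peripheral node. Cd3e stood in the order thymus, peripheral node, mesenteric node and spleen, with 11.44 ± 0.13 in thymus, 10.16 ± 0.18 in mesenteric node, 9.26 ± 0.11 in spleen and 10.58 ± 0.07 in peripheral node; the 2 nodes were not called different (adjusted p = 0.0968 by limma). Cd79a had 7.08 ± 0.18 in thymus, 12.06 ± 0.08 in mesenteric node, 12.21 ± 0.11 in spleen and 12.26 ± 0.15 in peripheral node, and thymus minus mesenteric node, spleen and peripheral node was -4.98, -5.12 and -5.18 (adjusted p between 3.44e-11 and 5.17e-11 by limma).

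Vessel genes differed among the 3 other organs. Glycam1 had 4.00 ± 0.00 in thymus, 13.03 ± 0.04 in mesenteric node, 4.00 ± 0.00 in spleen and 13.22 ± 0.07 in peripheral node, and Lyve1 had 4.56 ± 0.53 in thymus, 11.54 ± 0.11 in mesenteric node, 4.30 ± 0.46 in spleen and 10.57 ± 0.39 in peripheral node. Glycam1 was at the floor on all thymus and spleen arrays. Madcam1, the addressin of gut vessels, had 5.87 ± 0.07 in thymus, 10.61 ± 0.32 in mesenteric node, 8.32 ± 0.16 in spleen and 8.46 ± 0.29 in peripheral node, and was higher in mesenteric than in peripheral node by 2.15 ± 0.16 (SE; adjusted p = 3.01e-05 by limma). Some genes that fell in thymus were higher in peripheral node than in mesenteric node and spleen as well. Clec10a had 4.25 ± 0.46 in thymus, 7.86 ± 0.35 in mesenteric node, 5.46 ± 0.69 in spleen and 9.61 ± 0.22 in peripheral node, Timd4 had 6.75 ± 0.27 in thymus, 9.18 ± 0.15 in mesenteric node, 8.81 ± 0.31 in spleen and 11.28 ± 0.24 in peripheral node, and Il22ra2, the IL-22 binding protein, had 5.76 ± 0.47 in thymus, 9.56 ± 0.18 in mesenteric node, 6.88 ± 0.52 in spleen and 10.95 ± 0.64 in peripheral node. Mesenteric minus peripheral node was -1.75, -2.09 and -1.39 for these 3, with adjusted p of 0.00187, 6.19e-05 and 0.0401 by limma. Spleen minus peripheral node was -4.15, -2.46 and -4.07, with adjusted p of 1.25e-07, 8.18e-07 and 1.6e-06. Bpifb3 had 4.00 ± 0.00 in thymus, 4.00 ± 0.00 in mesenteric node, 4.39 ± 0.78 in spleen and 9.43 ± 0.26 in peripheral node, but did not pass the filter of that fit and has no test there. Igha ran the other way, with 11.56 ± 0.93 in thymus, 13.15 ± 0.09 in mesenteric node, 13.11 ± 0.05 in spleen and 9.39 ± 0.55 in peripheral node.

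**Figure D4:**
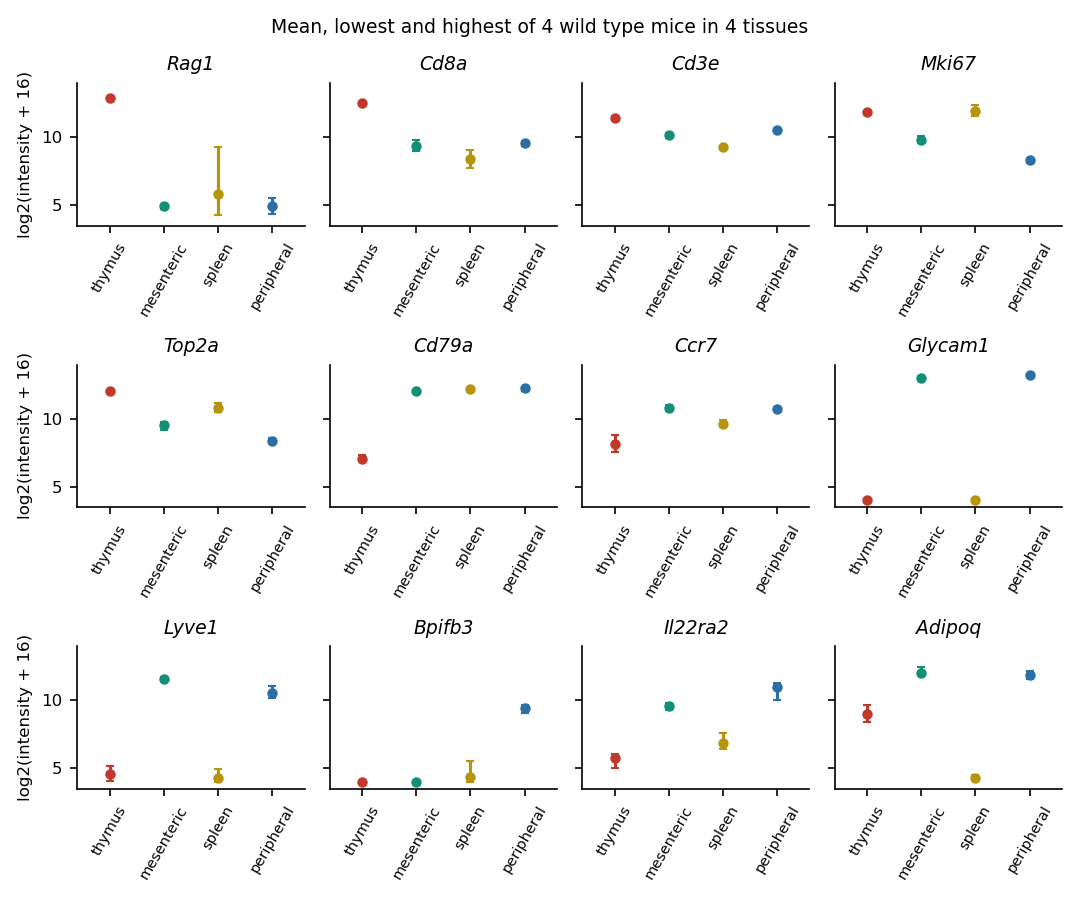
Mean level, log2(intensity + 16), of 12 genes in thymus, mesenteric lymph node, spleen and peripheral lymph node of 4 wild type mice; bars run from the lowest to the highest mouse. Rag1 is high in thymus, Cd79a low in thymus alone, Glycam1 and Lyve1 high in both lymph nodes, and Bpifb3 high in peripheral node.

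The same comparison in the CD30L transgenic mice uses other animals and so shares no array. There 2191 probe sets (8.11%) were at least 2-fold higher and 2721 (10.1%) at least 2-fold lower in thymus. Of these, 1944 and 2468 were also called so in wild type, which is 88.7% and 90.7% of the transgenic lists and 58.9% and 73.3% of the wild type ones. No probe set called at least 2-fold in wild type was called at least 2-fold the opposite way in transgenic mice. Rag1 differed by 7.76 in transgenic and 7.92 in wild type mice, Ccl25 by 7.07 and 6.82, Cd79a by -4.19 and -5.16, and Glycam1 by -9.22 and -9.16. Mitosis genes differed by a median of 1.99 in transgenic and 2.91 in wild type mice, and all 34 were at least 2-fold higher in thymus in both, against 6.86% of genes in transgenic mice. Mki67 differed by 2.05 in transgenic and 3.46 in wild type mice. The Gapdh ratio was 1.42 and 1.40 in the thymus arrays of transgenic mice 1 and 2, against 0.98 and 1.00 in those of transgenic mice 3 and 4, and its part was not tested. When the thymus minus lymph node difference itself was tested between genotypes with limma, 0 of 27022 probe sets passed, and 2638 had an unadjusted p under 0.05, where 1351 would by chance. The smallest adjusted p was 0.0946, which Dtl shared, at -1.88 ± 0.20 SE (transgenic minus wild type).

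**Figure D5:**
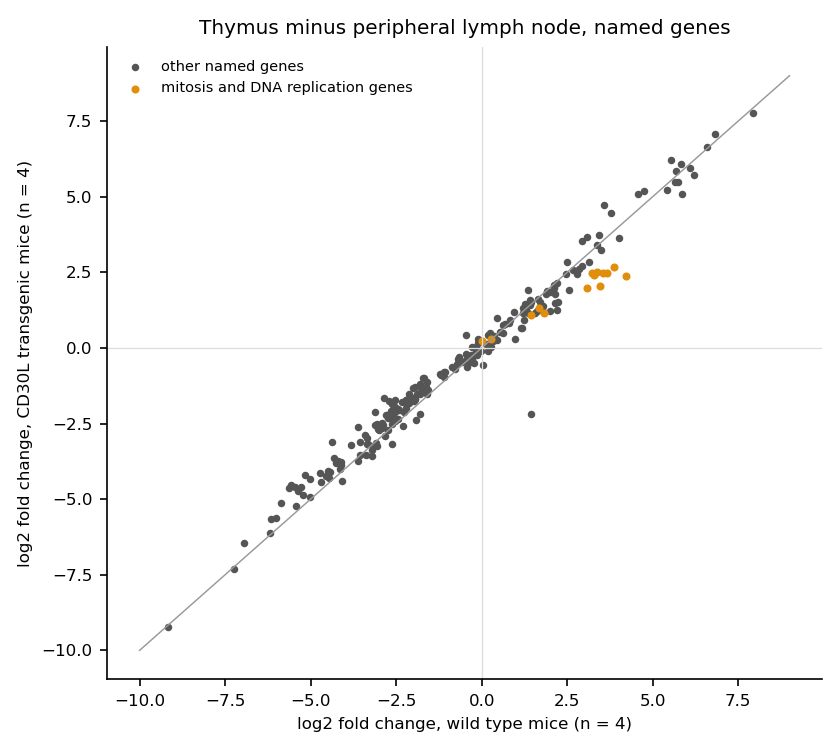
Log2 difference, thymus minus peripheral lymph node, of the genes named here in CD30L transgenic mice (y axis) against wild type mice (x axis), with the line of equality. Mitosis and replication genes (orange) that are above 2 units in wild type mice lie below the line, for example Mki67 at 2.05 in transgenic and 3.46 in wild type mice.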

How the data were processed

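The deposited table holds 1 linear intensity value per probe set and array, made by the authors; which algorithm summarised the probes, and with what scaling, is not given in the sources used here. Negative values were raised to 0, a constant of 16 was added before the log2 transform, and the 8 wild type arrays were quantile normalized. Of 45101 probe sets, 64 controls were left out, and those with a mean above the 40th percentile were tested with limma 3.58.1 in R 4.3.3, with the mouse as a block and Benjamini-Hochberg adjustment at 0.05. Other fits were normalized on their own arrays: the 8 transgenic arrays, the 16 wild type arrays, and the 16 arrays of thymus and peripheral lymph node from both genotypes.

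Where a gene had several probe sets, the one brightest on average stood for it. Of 45037 probe sets, the platform annotation gives 34945 a single gene symbol, 932 more than 1 and 9160 none, and 34741 of the 34945 matched RefSeq by gene ID. Of 1023 entries in 54 gene lists, 919 matched a probe set, and the others were not analysed here. The comparison, the members and the lists were chosen with earlier results of these data known, so list counts are descriptions. The genes named are Tnfsf8 and Tnfrsf8, the 12 largest rises and 12 largest falls, the 3 members of each list with the smallest p, and members whose role is needed to describe a list.

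The pairs come from the labels, which give each tissue of a genotype the same mouse numbers. Deviations of the thymus and lymph node arrays of mice 1 to 4 from their group means correlated at 0.10, 0.01, 0.06 and 0.15. Between different mice these correlations ran from -0.18 to 0.12, and for mouse 2 the highest of them, 0.12, was above its own 0.01. Alternatives changed the constant added, the normalization, the filter, the pairing, the variance model, array weights, the probe set per gene and the mice included. The code was tested on simulated data. The number of mice limits the precision.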

Additional observations from a re-analysis of the deposited data

Results flagged for a closer look

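For 36 of 478 groups of 4 arrays, 1 array lay far from the other 3 relative to the range of the group by Dixon's ratio. Chance gives this in about 1 in 20 groups. Levels are log2(intensity + 16), and the values of the other 3 mice are given in brackets. In mouse 1, the thymus array was high for Tnfrsf8 at 6.24 (others 6.08 to 6.1) and Clec10a at 4.93 (others 4 to 4.03). It was low for Madcam1 at 5.75 (others 5.87 to 5.89), Lta at 4 (others 4.92 to 5.1) and Btla at 7.91 (others 8.31 to 8.39). In mouse 2, the thymus array was high for Igha at 12.89 (others 10.99 to 11.24). In mouse 3, the thymus array was high for Fut7 at 4.44 (others 4) and Flt4 at 4.63 (others 4 to 4.08). It was low for Lmo2 at 5.83 (others 6.41 to 6.49) and Edem1 at 11.53 (others 11.63 to 11.65). In mouse 4, the thymus array was high for Izumo1r at 4.87 (others 4), Fcrl1 at 4.34 (others 4), Cd74 at 12.85 (others 12.66 to 12.68) and H2-DMb2 at 9.16 (others 8.72 to 8.75). It was low for Psmb6 at 10.54 (others 10.84 to 10.9), Ccnb2 at 10.47 (others 10.9 to 10.93), Ccne2 at 9.08 (others 9.49 to 9.51) and Il22ra2 at 5.05 (others 5.94 to 6). In mouse 1, the peripheral lymph node array was high for Satb1 at 10.99 (others 10.83 to 10.85) and Pax1 at 4.35 (others 4). In mouse 2, the peripheral lymph node array was high for Igha at 10.22 (others 9.06 to 9.18), Stab2 at 9.51 (others 9.45 to 9.46) and Krt14 at 4.36 (others 4). In mouse 3, the peripheral lymph node array was high for Foxo1 at 10.61 (others 10.53 to 10.54) and Rps19 at 12.87 (others 12.78 to 12.79). It was low for Arpp21 at 5.33 (others 5.55 to 5.59), Foxp3 at 6.32 (others 6.71 to 6.74), Cd79a at 12 (others 12.27 to 12.29), Csf1r at 11.95 (others 12.26 to 12.32), Il22ra2 at 10.01 (others 11.21 to 11.31), Bgn at 11.37 (others 11.52 to 11.53) and Dsp at 5.31 (others 5.9 to 5.96). In mouse 4, the peripheral lymph node array was low for Xrcc4 at 7.38 (others 7.75 to 7.82), Gbp3 at 9.35 (others 10.05 to 10.18), Xrcc5 at 6.92 (others 7.4 to 7.42) and Cxcr4 at 9.64 (others 10.3 to 10.38). The lymph node of mouse 3 held 9 of these values and the thymus of mouse 4 held 8. In 2 tissues of mouse 2, Igha stood above the other mice by over 1 unit. Gaps from the floor of 4 start from values deposited at 0 or less.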

How the results depend on the processing

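Of 239 genes run under the alternatives, no called one changed direction. The number called was 15692, between 13151 and 13911 with 1 mouse left out (higher 6804 to 7267, lower 6347 to 6644), and 9753 with mice 2 and 4 alone (5069 higher and 4684 lower), a choice made after seeing the data that also leaves fewer samples. Called probe sets past 2-fold numbered 6664, between 6510 and 6751 with 1 mouse left out (higher 3208 to 3368, lower 3302 to 3383). With the 60th percentile filter, which tests fewer probe sets, they numbered 4397 (2180 higher and 2217 lower). With 64 added in place of 16, which shrinks differences of dim probe sets, 2128 were higher past 2-fold. Without the replicate block that pairs the arrays by mouse, 15965 were called in wild type and 12838, against 11325, in transgenic mice. Of the 239 genes, dropping the block made 2 pass the threshold and none lose it. On the values as deposited, 12 of the 239 lost their call and 3 gained one (Ifit1, Ucp1 and Acta1). At a common median 7 lost it and 4 gained one (Prkdc, Ly6d, B2m and Epcam). The cause was not tested. For the transgenic against wild type difference, 2 probe sets passed on the values as deposited, Rgs13 at -3.03 and 1 without a gene name at -2.95, both with adjusted p = 0.00045 by limma, against 0 after normalization; the cause was not tested. Signal near the floor limits the size of the difference for the dimmest genes.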

Other observations

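Other gene groups held genes called in both directions. Of all genes, 22.8% were called higher and 35.1% lower. The shares of homing and cytokine receptor genes called higher, and of germinal centre genes called lower, were near these. Of 16 homing receptors, 4 rose and 10 fell in thymus: Cxcr4, the receptor for CXCL12, rose by 1.23 (adjusted p = 0.000854 by limma), while Gpr183, an oxysterol receptor of follicular B cells, was -2.88 and Ccr6 was -3.00. Of 28 cytokine receptor and JAK-STAT genes, 6 rose and 17 fell. Socs1, a brake on cytokine signals, rose by 2.11, and Socs2 was -2.40. Of 34 lymphocyte transcription factors, 12 rose and 17 fell. Sox4, a factor of immature lymphocytes, rose by 2.68, and Bcl11a, a factor of B cells and dendritic cells, was -3.21. Of 9 follicular helper genes, Sh2d1a, the adaptor SAP, rose by 2.95, and Btla, an inhibitory receptor, was -3.36. Of 10 germinal centre genes, 4 rose and 4 fell, and Bcl6, which double-positive thymocytes also express, rose by 1.18.

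Of 16 glycosylation genes, 2 rose and 11 fell. Mgat5, which branches N-glycans, rose by 1.35, and St6gal1, which adds the sialic acid bound by CD22, was -1.58. The second St6gal1 probe set was not called (-0.01). Of 18 folding genes of the endoplasmic reticulum, 12 fell and 1 rose. Of the 12, 2 fell at least 2-fold, against 16.3% of all genes. Among 10 neutrophil genes tested 3 rose and 2 fell, and among 7 erythroid genes 1 rose and 2 fell. Over all genes, 22.8% were called higher and 35.1% lower. The filter on low values had left out 3 of 13 neutrophil genes and 7 of 14 erythroid genes with a probe set. Of 14 genes known from skin keratinocytes with a probe set, 8 passed the filter on low values and 6 of these rose. Krt5 and Krt14 are among the 6 and were counted with thymic epithelium as well. Dsp, desmoplakin, rose by 4.75. Without the filter 5 of the 14 were at least 2-fold higher, with a median of 0.67.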
